A study of Mus musculus with 12 samples.

Results

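Sohlh1, Sohlh2, Cap1 and Zfp386 are the genes by which testes of Sohlh2 and Sohlh1 knockout mice were set apart on expression arrays. Cap1 and Zfp386 were chosen by their signals on the knockout arrays, because they differed between these when 2 arrays whose targeted genes went against their labels were left out, and Sohlh1 and Sohlh2 are the targeted genes. These 4 of the 18193 genes named on the array were read through 6 of 45037 probe sets, the units of measurement of the array. Sohlh1 and Sohlh2 had 1 probe set each, and Cap1 and Zfp386 had 2 each. Because these values chose the genes, the differences between the knockouts are given below as a description, with no test.

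The material was whole testis from Sohlh2-/- mice, Sohlh1-/- mice and wild-type mice, all at postnatal day 7 and all on a hybrid C57BL/6/129S5/SvEvBrd background. Each group had 4 Affymetrix arrays, and each array carried RNA from 3 pooled testes taken from different animals, so the spread between arrays is a spread between pools. The labels used here do not give the deleted part of either gene. Whether the probe sets of Sohlh1 and Sohlh2 lie within it is unknown, so how far a low signal checks a label is unknown too. Signals were deposited as MAS5 intensities on a linear scale. Whole testis mixes cell types, and fewer cells of a type cannot be told apart from less RNA per cell.

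SOHLH1 and SOHLH2 are transcription factors of the basic helix-loop-helix family, made in spermatogonia and in young oocytes. Such factors bind DNA as pairs, at the short E-box motif. In mice that lack either factor, spermatogonia fail to differentiate properly and the males are infertile. CAP1, the cyclase-associated protein, binds actin monomers and works with cofilin to recycle actin filaments. Zfp386 encodes a zinc finger protein.

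The DNA before the start of each targeted gene is shown because each gene was read in the absence of the other factor. Both stretches are the 250 bases upstream of the RefSeq start in build GRCm38.p6, printed 5′ to 3′ on the strand of the gene, with each E-box (CANNTG, which reads the same on both strands) in capitals. Sohlh1 lies on the minus strand, at chr2:25847249-25847498, and Sohlh2 on the plus strand, at chr3:55181794-55182043.
Sohlh1: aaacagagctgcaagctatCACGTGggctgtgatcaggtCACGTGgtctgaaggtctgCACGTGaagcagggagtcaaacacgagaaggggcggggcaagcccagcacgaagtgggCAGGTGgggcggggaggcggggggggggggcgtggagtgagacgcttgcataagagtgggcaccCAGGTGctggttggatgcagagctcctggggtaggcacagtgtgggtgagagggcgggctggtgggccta
Sohlh2: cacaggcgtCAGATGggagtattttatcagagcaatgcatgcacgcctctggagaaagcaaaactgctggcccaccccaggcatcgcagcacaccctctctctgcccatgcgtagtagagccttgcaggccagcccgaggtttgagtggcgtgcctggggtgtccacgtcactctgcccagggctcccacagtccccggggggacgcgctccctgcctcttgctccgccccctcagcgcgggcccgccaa

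The Sohlh1 stretch held 5 E-boxes, which 1.15% of 32851 windows of the same length had at least. Of these 5, 3 read CACGTG, a form of CANNTG counted among them, and 3 or more CACGTG stood in 20 windows (0.0609%). The Sohlh2 stretch held 1 E-box and no CACGTG. The same windows of Cap1 and Zfp386, not printed here, held 1 and 2 E-boxes, and 66.2% of all windows held at least 1. A match of letters is a description of the sequence and shows no binding.

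On the arrays labelled Sohlh2 knockout 1, 3-1, 4 and 5 the Sohlh1 signal was 126, 465, 494 and 563. On those labelled Sohlh1 knockout 2, 3, 4 and 5 it was 104, 61.0, 50.2 and 595, against 1125, 1138, 1200 and 1233 on wild-type arrays 3, 4, 5 and 6. All 8 knockout arrays lay below all 4 wild-type arrays. The array labelled Sohlh1 knockout 5 read highest of the 8, although its label names the deleted gene, and the array labelled Sohlh2 knockout 1 lay nearer the other arrays labelled Sohlh1 knockout than its own group.

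Sohlh2 gave the mirror image. Its signal was 1847, 157, 93.6 and 73.2 on arrays labelled Sohlh2 knockout 1, 3-1, 4 and 5. It was 1556, 1783, 1605 and 94.4 on those labelled Sohlh1 knockout 2, 3, 4 and 5, against 885, 1104, 1012 and 1200 in wild type. The 2 arrays that stood apart in Sohlh1 stood apart here too, each on the side opposite to its label. Whether these 2 samples carry the right labels, or were exchanged, was not tested and is not settled by the labels used here, and each group mean, SD and call below is that of the group as labelled. On the array labelled Sohlh2 knockout 1 and on those labelled Sohlh1 knockout 2, 3 and 4, Sohlh2 lay above the highest wild-type array.

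**Figure D1:**
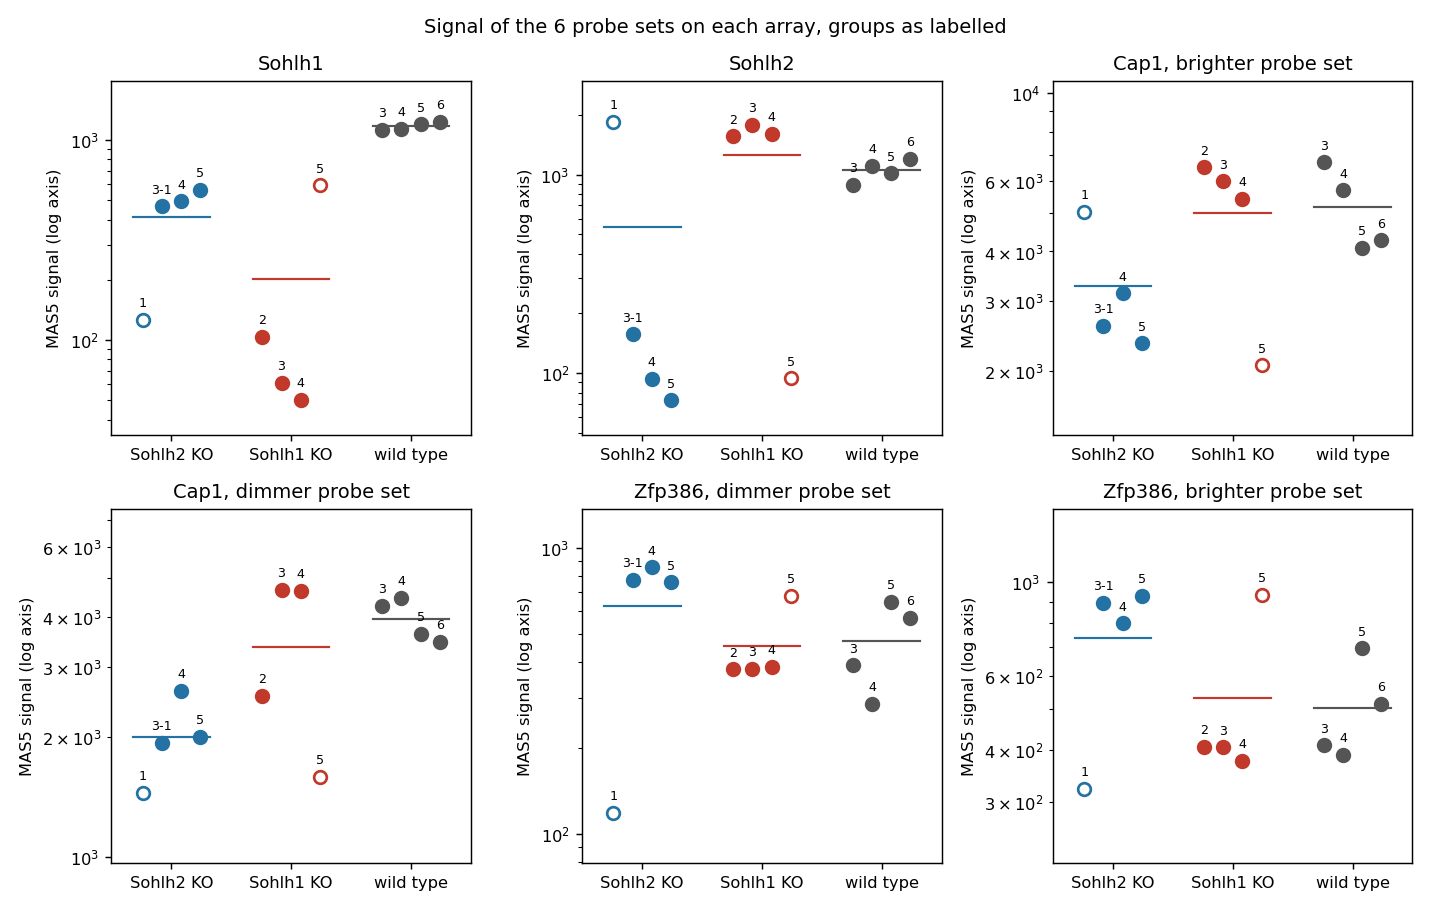
MAS5 signal (log axis) of the 6 probe sets on each of the 12 arrays, by group as labelled; points carry the replicate number, lines are means of 4 arrays, and open circles mark the arrays labelled Sohlh2 knockout 1 and Sohlh1 knockout 5. For Sohlh1, Sohlh2 and both Zfp386 probe sets each open circle lies apart from the other 3 arrays of its label.

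Each knockout was set against wild type with limma over the 28694 probe sets that passed a filter on low signals, with the groups as labelled. Differences are on the scale log2(signal + 14.2), which understates those of dim genes, and a probe set was called at a Benjamini-Hochberg adjusted p under 0.05. Sohlh1 averaged 202 ± 263 in the Sohlh1 knockout and 1174 ± 50.9 in wild type (SD, n = 4 each), a log2 difference of -3.12 with an SE of 0.58 (adjusted p = 0.0118 by limma). This was the 1 call among the 6 probe sets in that comparison, beside 2.09% of all probe sets tested. The log2 difference of Sohlh2 was -0.33 with an SE of 0.92 (adjusted p = 0.904 by limma) there, a mean that joins 3 arrays above wild type with 1 far below. Without both arrays that went against their labels, Sohlh2 stood at 0.65 on the same scale, with no test since its own values picked them.

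None of the 6 probe sets was called in the Sohlh2 knockout against wild type with limma, beside 1.55% of all probe sets. Of the 6, 4 had an unadjusted p under 0.05, as had 3870 of all 28694. Sohlh2 itself averaged 543 ± 870 in the Sohlh2 knockout and 1050 ± 134 in wild type (SD, n = 4 each; log2 difference -2.18, SE 0.92, adjusted p = 0.309 by limma). Without the array labelled Sohlh2 knockout 1 that difference was -3.17, given with no test for the same reason. Sohlh1 averaged 412 ± 195 in the Sohlh2 knockout, a log2 difference of -1.66 from wild type with an SE of 0.58 (adjusted p = 0.202 by limma). Sohlh1 was below every wild-type array on all 4 arrays of that label. An arrangement without overlap, in either direction, was found for 8.82% of all probe sets in this comparison and for 11.2% in the Sohlh1 comparison.

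The gene that was not targeted lay on opposite sides of wild type in the knockouts on the arrays that went with their labels. On those labelled Sohlh2 knockout 3-1, 4 and 5 Sohlh1 stood at 43.2% of the wild-type mean, and on those labelled Sohlh1 knockout 2, 3 and 4 the level of Sohlh2 was 157% of it. The spread over those 3 arrays was 507 ± 50.4 for Sohlh1 and 1648 ± 119 for Sohlh2 (SD, n = 3), with the highest array at 1.21 and 1.15 times the lowest. The targeted gene itself read 10.3% of wild type for Sohlh2 and 6.11% for Sohlh1 on the same arrays. The other array of each label was left out by its own Sohlh1 and Sohlh2 signals, so the narrow spread follows from that choice. With all 4 arrays as labelled, Sohlh1 was 412 ± 195 in the Sohlh2 knockout and Sohlh2 was 1260 ± 783 in the Sohlh1 knockout (SD).

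Cap1 was bright on every array. Its brighter probe set read 5038, 2606, 3142 and 2353 on arrays labelled Sohlh2 knockout 1, 3-1, 4 and 5. It read 6508, 6000, 5428 and 2072 on those labelled Sohlh1 knockout 2, 3, 4 and 5, against 6705, 5696, 4083 and 4265 in wild type. Cap1 was thus low on 3 arrays labelled Sohlh2 knockout and on 1 labelled Sohlh1 knockout, and the remaining knockout arrays lay within the wild-type range.

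The arrays labelled Sohlh2 knockout 1 and Sohlh1 knockout 5 took no part in the choice of Cap1. The array labelled Sohlh1 knockout 5 read the lowest Cap1 signal of all 12 arrays. The array labelled Sohlh2 knockout 1, at 5038, lay between the highest of the other arrays of its label (3142) and the lowest of the arrays labelled Sohlh1 knockout 2, 3 and 4 (5428). On this probe set both arrays lay nearer the other label's arrays, as they did for the targeted genes.

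The dimmer Cap1 probe set read 1450, 1934, 2611 and 2004 on arrays labelled Sohlh2 knockout 1, 3-1, 4 and 5. It read 2536, 4672, 4649 and 1592 on those labelled Sohlh1 knockout 2, 3, 4 and 5, against 4262, 4477, 3628 and 3467 in wild type. Here all 4 arrays labelled Sohlh2 knockout lay below all wild-type arrays, and so did those labelled Sohlh1 knockout 2 and 5. The array labelled Sohlh2 knockout 1 was the lowest of all 12, on the side of its label, unlike in the brighter probe set. This group averaged 2000 ± 476, against 3958 ± 487 in wild type (SD, n = 4 each; log2 difference -1.003, SE 0.28, adjusted p = 0.0992 by limma), which was not called. The brighter probe set had -0.69 (SE 0.32, adjusted p = 0.360 by limma).

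In the Sohlh1 knockout the log2 differences of Cap1 from wild type were -0.15 (SE 0.32, adjusted p = 0.869 by limma) in the brighter probe set and -0.36 (SE 0.28, adjusted p = 0.588 by limma) in the dimmer one. These tests share the knockout arrays with the choice of Cap1 and are not independent of it. Without both arrays that went against their labels, the brighter Cap1 probe set had -0.92 in the Sohlh2 knockout and 0.23 in the Sohlh1 knockout, given with no test because those arrays chose it.

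The Cap1 probe sets disagreed on the arrays with the highest 3' to 5' control ratios. The ratio of the brighter signal to the dimmer was 3.47 on the array labelled Sohlh2 knockout 1 and 2.57 on that labelled Sohlh1 knockout 2, and between 1.13 and 1.57 on the other 10 arrays. The 3' to 5' signal ratio of the actin control, which rises as RNA is degraded or copied incompletely, was 3.56 and 2.10 on those arrays, where the highest of the others was 1.45. For Zfp386 the ratio of the same kind was 2.71 on the array labelled Sohlh2 knockout 1 and 1.08 on that labelled Sohlh1 knockout 2, within the 0.904 to 1.37 of the other 10. The part of RNA quality in the Cap1 and Zfp386 signals was not tested.

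**Figure D2:**
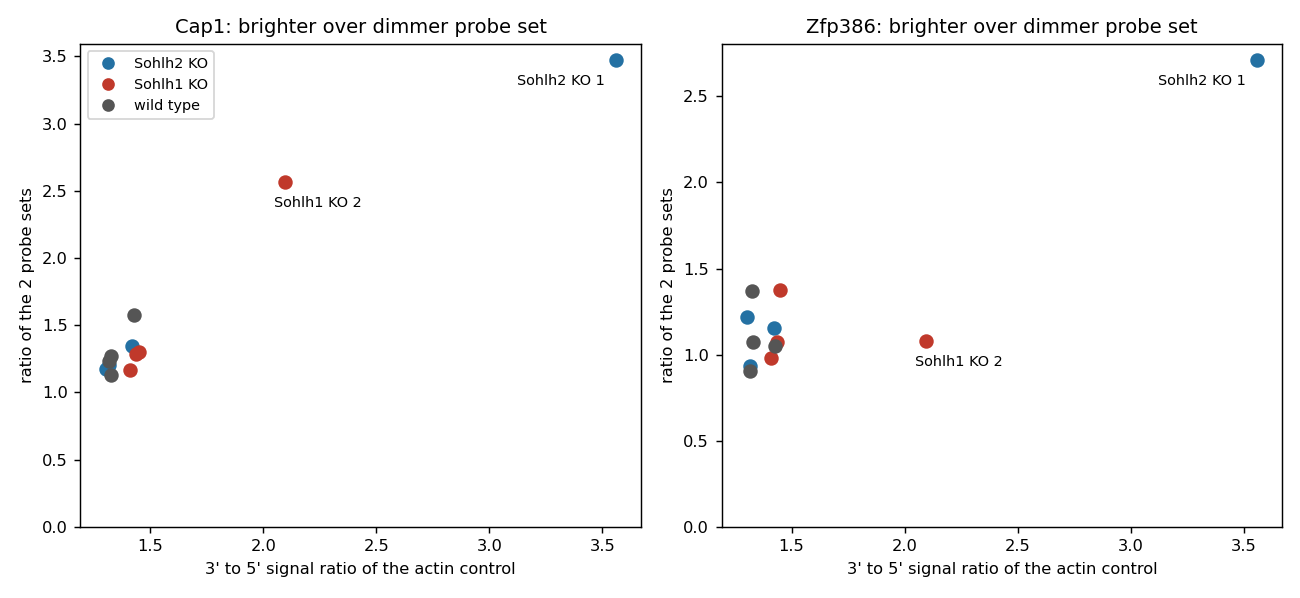
Ratio of the signals of the 2 Cap1 probe sets (left) and the 2 Zfp386 probe sets (right) on each array, against the 3' to 5' signal ratio of the actin control. The array labelled Sohlh2 knockout 1 has the highest value on every axis, and that labelled Sohlh1 knockout 2 stands apart for Cap1 but not for Zfp386.

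Zfp386 ran the other way from the brighter Cap1 probe set. Its probe set of higher mean, the brighter one, read 323, 894, 800 and 927 on arrays labelled Sohlh2 knockout 1, 3-1, 4 and 5. It read 407, 405, 376 and 934 on those labelled Sohlh1 knockout 2, 3, 4 and 5, against 410, 390, 696 and 514 in wild type. Zfp386 was high on the knockout arrays where the brighter Cap1 probe set was low. It was not high on those labelled Sohlh2 knockout 1 and Sohlh1 knockout 2, where only the dimmer Cap1 probe set lay below wild type, and the array labelled Sohlh2 knockout 1 read lowest of all 12.

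The dimmer Zfp386 probe set read 119, 775, 857 and 759 on arrays labelled Sohlh2 knockout 1, 3-1, 4 and 5. It read 377, 378, 384 and 680 on those labelled Sohlh1 knockout 2, 3, 4 and 5, against 390, 285, 648 and 569 in wild type. The arrays labelled Sohlh1 knockout 2, 3 and 4 differed among themselves by 1.02-fold from highest to lowest. All 4 arrays of that label differed by 1.81-fold, and the 4 wild-type arrays by 2.27-fold. Zfp386 was picked by difference against error with those 3 arrays and without the array labelled Sohlh1 knockout 5. Nothing is therefore read from their narrow range.

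With groups as labelled Zfp386 was not called in either knockout. In the Sohlh2 knockout the log2 differences from wild type were 0.47 (SE 0.33, adjusted p = 0.583 by limma) in the brighter probe set and 0.15 (SE 0.48, adjusted p = 0.927 by limma) in the dimmer one. For the Sohlh1 knockout they were 0.0062 (SE 0.33, adjusted p = 0.996 by limma) and -0.034 (SE 0.48, adjusted p = 0.983 by limma), and the sign of the last turned under several other settings. Both arrays left out of the choice lay nearer the other label's arrays in both probe sets. Without them the brighter and dimmer probe sets had 0.82 and 0.80 in the Sohlh2 knockout and -0.30 and -0.24 in the Sohlh1 knockout, given with no test because those arrays chose the gene.

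**Figure D3:**
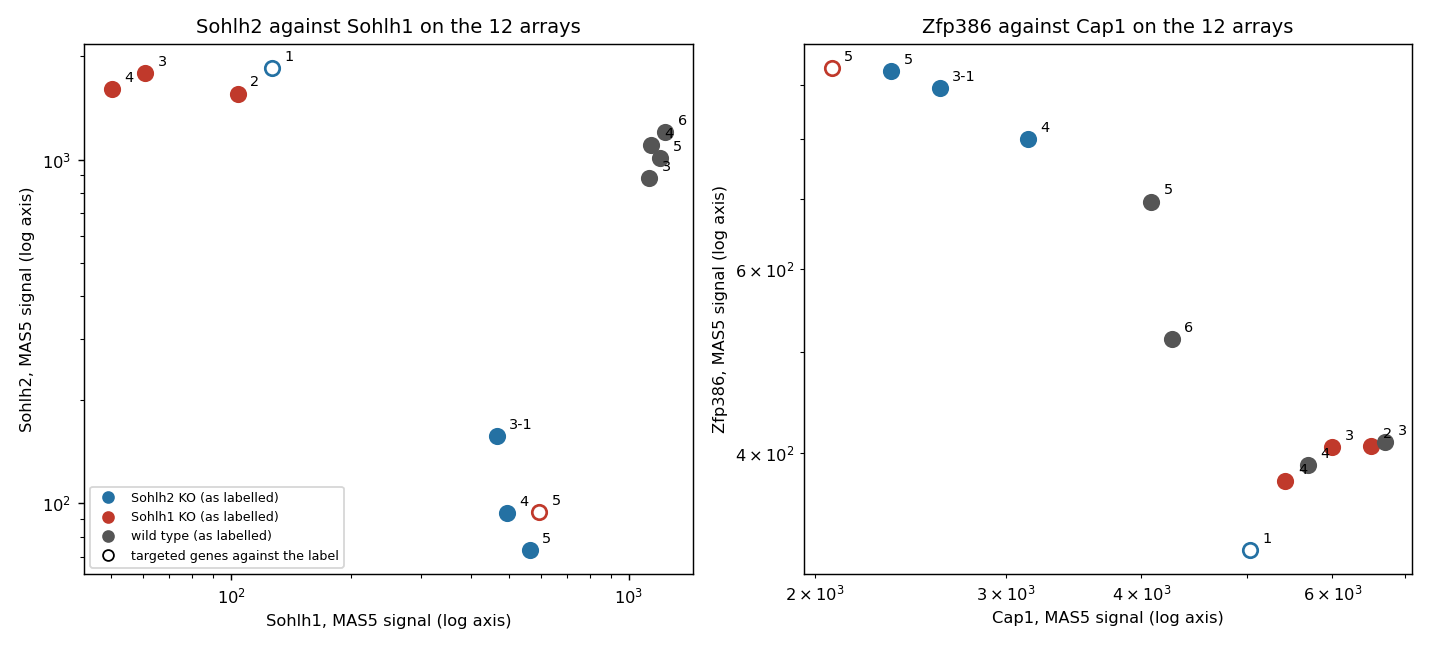
Signals (log axes) of Sohlh2 against Sohlh1 (left) and of Zfp386 against Cap1 (right, brighter probe sets) on the 12 arrays, marked by labelled group and replicate number, with open circles for the arrays labelled Sohlh2 knockout 1 and Sohlh1 knockout 5. On the left the wild-type arrays lie apart from all knockout arrays, while on the right they are spread along the same band as the knockout arrays.

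The wild-type arrays also differed among themselves in Cap1 and Zfp386. Wild type 3 and 4 had the 2 highest Cap1 signals and the 2 lowest Zfp386 signals of their group in every one of the 4 probe sets, and wild type 5 and 6 had the reverse. The highest wild-type signal was 1.64 times the lowest for Cap1 and 1.79 times for Zfp386 in their brighter probe sets, compared with 1.10 times for Sohlh1 and 1.36 times for Sohlh2. The SD of the log2 signal in wild type exceeded that of 73.4% of tested probe sets for Cap1 and of 77.1% for Zfp386 in the same probe sets, and of 5.36% for Sohlh1 and 42.4% for Sohlh2.

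Across the 12 arrays the log2 signals of Cap1 and Zfp386 in the brighter probe sets had a Pearson correlation of -0.93. The other pairings of their probe sets gave -0.67 (brighter Cap1 with dimmer Zfp386), -0.46 (dimmer Cap1 with brighter Zfp386) and -0.039 (both dimmer). In the 4 wild-type arrays alone the pairings gave -0.85, -0.80, -0.80 and -0.94 in the same order. The opposite course of the dimmer probe sets was thus seen in wild type but not over all 12 arrays. The array labelled Sohlh2 knockout 1 read lowest of the 12 in both dimmer probe sets. These are descriptions over arrays that share their RNA and their scaling between the genes. Both genes were chosen for differing between arrays of the same set.

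Markers of Leydig cells, the steroid-producing cells between the tubules, are given array by array, out of the 7 cell types whose markers were summed, a choice made after the values were seen. The 5 markers with a probe set summed to 13254, 11845, 11760 and 11845 on arrays labelled Sohlh2 knockout 1, 3-1, 4 and 5. The sums were 13989, 12702, 13463 and 12408 on those labelled Sohlh1 knockout 2, 3, 4 and 5, against 14300, 14259, 11848 and 11589 in wild type. Wild type 3 and 4, high in Cap1, also had the highest sums, but the array lowest in the brighter Cap1 probe set, that labelled Sohlh1 knockout 5, had a higher sum than wild type 5 and 6. None of the 5 was called in either knockout, beside 1.55% and 2.09% of all probe sets in the Sohlh2 and Sohlh1 knockouts. The part of these markers in the levels of Cap1 and Zfp386 was not tested.

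Markers of 7 cell types were read to check the tissue. Of 47 markers with a probe set 46 had a mean above the filter value of 48.6, and the 1 below it was the haemoglobin gene Hba-a1, a mark of blood. Germ cell markers summed to 33263 to 37526 in Sohlh2 knockouts, 32039 to 36533 in Sohlh1 knockouts and 33622 to 40060 in wild type. Of these 10 markers 2, Dppa4 and Stk31, rose in both knockouts. Over all probe sets 0.606% and 0.707% were called higher in the Sohlh2 and Sohlh1 knockouts. Sertoli cell sums were 83002 to 98544, 87835 to 99778 and 75038 to 89754 in the same order of groups. No marker of Sertoli, Leydig, peritubular, endothelial, blood or immune cells was called in either knockout. Over all probe sets only 1.55% and 2.09% were called in the Sohlh2 and Sohlh1 knockouts, so nothing is read from their absence.

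Between the knockouts as labelled, limma called 0 of 28694 probe sets (0%), while 767 had an unadjusted p under 0.05. Groups did not overlap for 1.9% of all probe sets and for 0 of the 6 members. Without the arrays labelled Sohlh2 knockout 1 and Sohlh1 knockout 5, a fit of 1 probe set per gene called 4 genes (0.0292%), which were Sohlh2, Sohlh1, Cap1 and Zfp386. Nothing is read from that count, as it is how the genes were found.

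In that fit the log2 difference, Sohlh2 knockout minus Sohlh1 knockout, was -3.82 (SE 0.19) for Sohlh2 and 2.65 (SE 0.18) for Sohlh1. Cap1, with 2700 ± 403 against 5978 ± 540 (SD, n = 3 each), had -1.15 (SE 0.16). Zfp386, just inside the threshold, had 874 ± 66.3 against 396 ± 17.1, a difference of 1.11 (SE 0.17). Just outside stood Ndufs5, a subunit of mitochondrial complex I, with 3991 ± 311 against 2209 ± 204 (0.85, SE 0.15), and the detoxifying enzyme Glo1 with 3659 ± 199 against 6484 ± 962 (-0.81, SE 0.15).

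By size of that difference alone Sohlh2 was first and Sohlh1 second of 13702 genes, but Cap1 was only 69th and Zfp386 77th. The 3 genes on either side of Cap1 were Wfdc18, Trim12a, Gpr182, Wfdc12, Hoxb5os and Zfp991, with log2 differences from -1.16 to 1.16. Those beside Zfp386 included the pluripotency factor Sox2, with 1.11, and the sperm flagellum gene Spag4, with -1.11. These neighbours had larger errors, with SE from 0.26 to 0.77 beside Cap1, and were dimmer than the gene they stood beside. Cap1 and Zfp386 were picked by difference against error, so a small error at this size of difference follows from the choice. Across the wild-type arrays their brighter probe sets varied more than most probe sets tested.

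Which genes pass depended on the probe sets used. With all 28694 probe sets, 9 (0.0314%) passed without the same 2 arrays. They held Sohlh2, Sohlh1 and Cap1, and in place of Zfp386 probe sets of Eny2, Akirin1, Gnb1 and Lsm12 and 2 with no gene name. Eny2 encodes a subunit of complexes of gene activation and mRNA export, and Gnb1 a beta subunit of G proteins. These names were chosen after their values were seen. Zfp386 was then the first probe set outside. The dimmer probe sets of Cap1, with -0.81 (SE 0.20), and of Zfp386, with 1.04 (SE 0.22), were not among the 9.

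The 12 genes that followed the 4 in the fit of 1 probe set per gene show what the arrays left out of the choice did. Nearness was taken on the log2 scale. The array labelled Sohlh1 knockout 5 lay nearer the mean of the arrays labelled Sohlh2 knockout 3-1, 4 and 5 for 11 of the 12. The array labelled Sohlh2 knockout 1 lay nearer the mean of those labelled Sohlh1 knockout 2, 3 and 4 for 9 of the 12. Ndufs5, for example, read 4062 on the array labelled Sohlh1 knockout 5, above the mean of 3991 on the 3 arrays labelled Sohlh2 knockout. Krt12, a keratin of the cornea, read 157 on the array labelled Sohlh2 knockout 1. This lay between the means of 228 and 87.6 on the other arrays labelled Sohlh2 and Sohlh1 knockout, and nearer the first on the log2 scale. A gene near the middle, as Krt12 was, can fall on the other side on the linear scale. Several of the 12 genes varied together with Cap1 or Zfp386 over the arrays, so they are not 12 separate observations. The same count over all genes was not made, so nothing is read from the 11 and the 9. The arrays labelled Sohlh2 knockout 1 and Sohlh1 knockout 2 also had the highest actin 3' to 5' ratios, 3.56 and 2.10. The part of RNA quality in these counts was not tested.

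**Figure D4:**
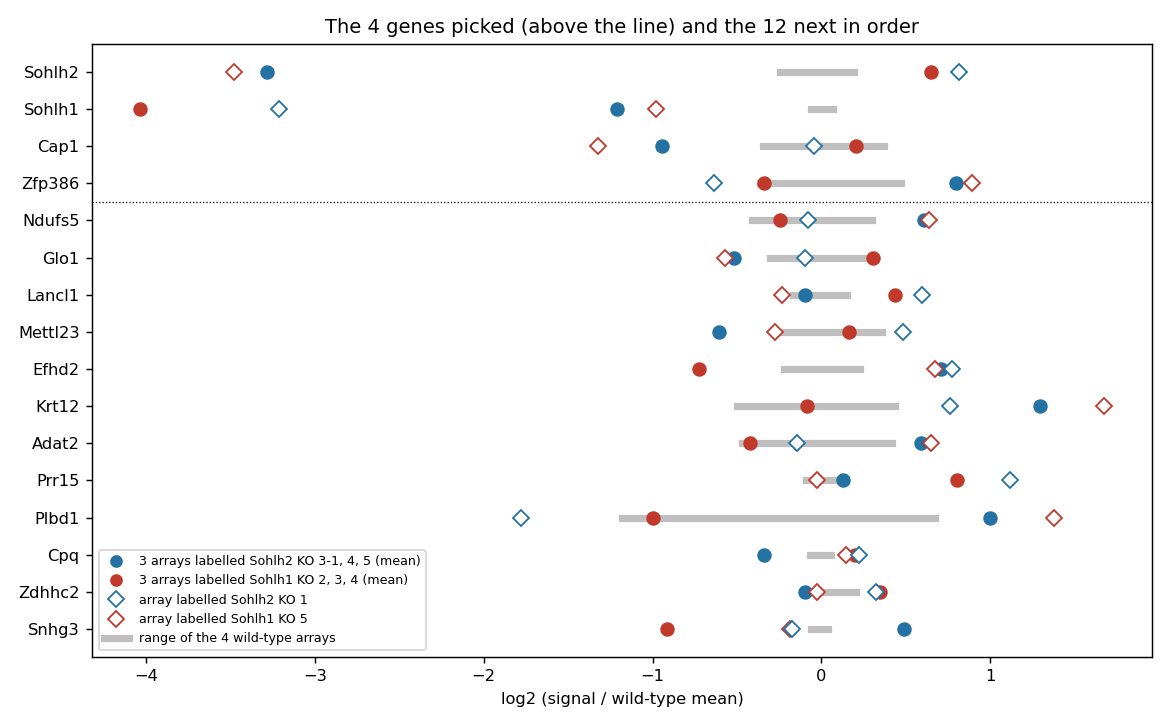
Log2 ratio of signal to the wild-type mean for the 4 genes picked and the 12 next in order. Filled circles are means of the arrays labelled Sohlh2 knockout 3-1, 4 and 5 (blue) and Sohlh1 knockout 2, 3 and 4 (red), open diamonds the arrays labelled Sohlh2 knockout 1 (blue) and Sohlh1 knockout 5 (red), and grey bars the range of the 4 wild-type arrays. On this log2 scale the red diamond lies nearer the blue circle for 11 of the 12 genes below the line.

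The genes most like each member were taken by the Pearson correlation of log2 signals over the 12 arrays, among 13698 other genes. Cap1 was most like Piga, which starts the synthesis of GPI anchors (0.92), Pdhb of the pyruvate dehydrogenase complex (0.90), Acadl of fatty acid oxidation (0.87) and Glo1 (0.87). It was least like Krt12 (-0.94) and Ndufs5 (-0.93). Ndufs5 was low, at 2413 and 1965, on wild type 3 and 4 and higher, at 2872 and 3214, on wild type 5 and 6, as Zfp386 was.

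Zfp386 was most like the phospholipase B-like gene Plbd1 (0.94), Ndufs5 (0.91), the tight junction gene Marveld2 (0.90) and Adat2, a tRNA deaminase (0.89). Plbd1 had the widest range of these, with 217, 1778, 1076 and 1617 on arrays labelled Sohlh2 knockout 1, 3-1, 4 and 5. It read 316, 559, 247 and 1935 on those labelled Sohlh1 knockout 2, 3, 4 and 5, against 420, 329, 1047 and 1188 in wild type. The lowest correlations were those of Cyp11a1 (-0.91), the enzyme that starts steroid synthesis in Leydig cells, and Mettl23 (-0.90).

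**Figure D5:**
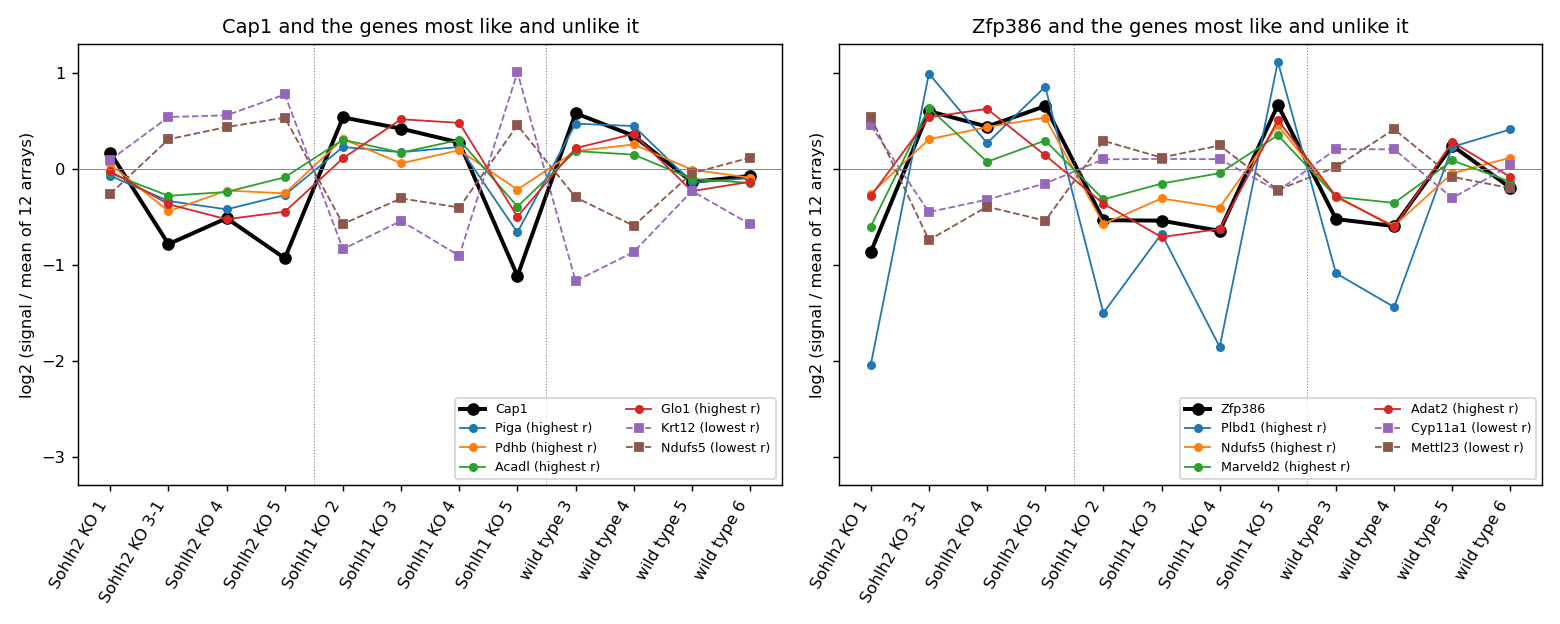
Log2 ratio of signal to the mean of 12 arrays for Cap1 (left) and Zfp386 (right, black lines), with the 4 genes of highest and the 2 of lowest correlation, on each array as labelled. The lines turn at the arrays labelled Sohlh2 knockout 1 and Sohlh1 knockout 5, and between wild type 4 and 5.

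Sohlh1 was most like Akap8 (0.92), Cstf1 of mRNA 3' end processing (0.92), the cell cycle regulator Ccnd1 (0.88) and the piRNA methyltransferase Henmt1 (0.88). Ccnd1, cyclin D1, averaged 922 in Sohlh2 knockouts, 811 in Sohlh1 knockouts and 1552 in wild type. Hfe (-0.89) and Klhl23 (-0.89) were the least like Sohlh1. Sohlh2 was most like Wscd2 (0.90), Anxa1 (0.89), Nfatc4 (0.88) and Asb1 (0.86), and least like Ecrg4 and Ndufs5 (-0.89 each).

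Of 12 genes tied to SOHLH1 and SOHLH2 in the testis or ovary 11 were tested. In the Sohlh2 knockout 5 fell and 1 rose (median log2 difference -0.98), and in the Sohlh1 knockout 6 fell and 1 rose (median -1.17), beside medians of 0.022 and 0.033 over all 13702 genes. Over the whole array 0.944% were called lower and 0.606% higher in the Sohlh2 knockout, and 1.38% lower and 0.707% higher in the Sohlh1 knockout. Without both arrays that went against their labels, 5 fell in the Sohlh2 knockout (beside 1.02% of all probe sets) and 7 in the Sohlh1 knockout (beside 2.08%). Such genes were listed with results of these samples known, so the counts are no independent evidence.

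Kit, the receptor of differentiating spermatogonia, averaged 442 ± 76.6 in Sohlh2 knockouts, 453 ± 91.2 in Sohlh1 knockouts and 1739 ± 176 in wild type (SD, n = 4 each). The transcription factor Sox3 averaged 757 ± 69.0, 705 ± 114 and 1529 ± 193 in the same groups, with log2 differences of -0.997 (adjusted p = 0.000946 by limma) and -1.11 (adjusted p = 0.000408 by limma). Lhx8 and Dmrtb1 fell in both knockouts as well. Kit and Sox3 thus lay low in both knockouts. With groups as labelled Cap1 and Zfp386 were not called in either, which does not show that they were unchanged.

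Of 27 listed genes of actin turnover, the process in which CAP1 works, 25 were tested, with a median log2 difference of 0.07 in the Sohlh2 knockout, where 0 were called by limma (4 at an unadjusted p under 0.05), and of 0.06 in the Sohlh1 knockout, where 1 rose. The medians of all genes were 0.022 and 0.033, and 0.707% of all probe sets were called higher in the Sohlh1 knockout. In the Sohlh2 knockout 3870 of all 28694 probe sets had an unadjusted p under 0.05, so nothing is read from the 4. The 1 called was Gmfb, a factor that takes branched actin apart, with 3546 ± 296 in Sohlh2 knockouts, 4000 ± 464 in Sohlh1 knockouts and 2892 ± 253 in wild type (log2 difference 0.46 in the Sohlh1 knockout, adjusted p = 0.0292 by limma). Cap2, the other member of the CAP family, averaged 79.6, 63.6 and 108 in the same groups and was not called (adjusted p = 0.632 and 0.283 by limma).

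The proteins through which KRAB zinc finger factors silence genes were listed because Zfp386 is a zinc finger gene. Of 16 tested, 0 were called by limma in the Sohlh2 knockout (3 at an unadjusted p under 0.05), and 1 fell in the Sohlh1 knockout, where 1.38% of all probe sets were called lower. It was Uhrf1, which guides DNA methylation after replication, with 1778 ± 61.6 in Sohlh2 knockouts, 1529 ± 49.9 in Sohlh1 knockouts and 2227 ± 327 in wild type (log2 difference -0.53 in the Sohlh1 knockout, adjusted p = 0.0124 by limma). Of 15 KRAB zinc finger genes tested 0 were called by limma in either knockout (1 and 2 at an unadjusted p under 0.05), with medians of 0.12 and 0.14. The largest difference among them in the Sohlh2 knockout was that of Zfp708, 0.76 (adjusted p = 0.215 by limma). Of all 28694 probe sets 3870 and 4286 had an unadjusted p under 0.05 in the Sohlh2 and Sohlh1 knockouts. Nothing is read from the unadjusted counts of these lists.

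The 5 measured genes on each side of each member in the RefSeq gene order gave 40 neighbours. In each knockout 1 of the 40 was called, and it was the same gene, Rfxap, near Sohlh2. Over all probe sets 1.55% and 2.09% were called, so nothing is read from this count. Rfxap averaged 573 in Sohlh2 knockouts, 545 in Sohlh1 knockouts and 835 in wild type (log2 differences -0.53 and -0.61, adjusted p = 0.0417 and 0.0173 by limma). Around Cap1 none was called, with log2 differences from -0.18 to 0.36 in the Sohlh2 knockout and from -0.29 to 0.51 in the Sohlh1 knockout. Cap1 itself was not called in these comparisons. The neighbours were not read in the comparison between the knockouts, on which Cap1 was chosen.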

How the data were processed

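Samples were grouped by their titles. The deposited values are signal intensity on a linear scale, and the submitters' processing notes name MAS5 and GCOS, with no version in the sources used here. The trimmed mean of every array is 500.0 with 2% removed at each end. Precision is limited by the number of arrays, 4 a group, and a p-value covers only how the pools of testes varied.

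The deposited intensity was put on a log2 scale after adding 14.2 (the 20th percentile of 45037 non-control probe sets). Probe sets were kept where at least 4 arrays exceeded 48.6 (the 40th percentile), which left 28694, all 6 members among them. Symbols came from the platform annotation, and the probe set of highest mean stood for a gene in lists. One linear model of all 12 arrays was fitted in limma 3.58.1 (R 4.3.3) with eBayes and a trend, 2-sided, and adjusted by Benjamini and Hochberg over all probe sets kept. The steps were tested on simulated data. Figures were drawn with matplotlib 3.10.9.

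The members, the lists and the arrays left out were chosen with earlier results of these data known. Named genes were the members, up to 4 of each list by smallest p, the 4 most and 2 least correlated with each member, the 3 on either side of Cap1 and Zfp386 by size of difference, and called neighbours. Genes near the threshold and marker genes were named after their values were seen. Replicate numbers recur between groups, but the deviations of same-numbered arrays correlated from -0.12 to 0.10, so they were not taken as pairs. Alternatives were other offsets, normalizations and filters, array weights, a covariate for RNA quality, the replicate number as a block, an exact permutation test and leaving out arrays.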

Additional observations from a re-analysis of the deposited data

Results flagged for a closer look

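Among 18 sets of 4 arrays (6 probe sets in 3 groups), 7 signals lay far from the other 3 arrays of their label on the log2 scale by Dixon's criterion, which chance passes for about 1 set in 20. The number is not to be read against that share, because the same signals picked these arrays and, through the spread of the other 3 arrays of each label, Cap1 and Zfp386. All 7 came from the arrays labelled Sohlh2 knockout 1 and Sohlh1 knockout 5. On the array labelled Sohlh2 knockout 1, Sohlh1 read 126 where the other arrays of its label read 465 to 563. Zfp386 read 119 there (dimmer probe set, others 759 to 857) and 323 (brighter probe set, others 800 to 927). Sohlh2 had a signal of 94.4 on the array labelled Sohlh1 knockout 5, where the other arrays of its label read 1556 to 1783. Cap1 read 2072 there (brighter probe set, others 5428 to 6508), and Zfp386 read 680 (dimmer probe set, others 377 to 384) and 934 (brighter probe set, others 376 to 407).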

How the results depend on the processing

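The number of probe sets called, 445 in the Sohlh2 knockout and 600 in the Sohlh1 knockout against wild type, was 293 and 343 with eBayes without a trend, 1075 and 1227 with array weights, 747 and 991 without the arrays labelled Sohlh2 knockout 1 and Sohlh1 knockout 2, and 789 and 1230 with a covariate for the 3' to 5' ratio. With only the groups compared it was 283 in the Sohlh2 knockout. Leaving out 1 array gave 202 to 503 and 230 to 1238, the last without the array labelled Sohlh2 knockout 1. Between the knockouts it was 0 for each array left out, 9 without the arrays labelled Sohlh2 knockout 1 and Sohlh1 knockout 5, and 4 with 1 probe set per gene. Without those 2 arrays the log2 differences in the Sohlh2 knockout were -1.19 for Sohlh1, -3.17 for Sohlh2, -0.92 and -0.86 for the brighter and dimmer Cap1 probe sets and 0.82 for the brighter Zfp386 probe set. In the Sohlh1 knockout they were -3.84 for Sohlh1, 0.65 for Sohlh2, 0.23 for the brighter Cap1 probe set and -0.30 for the brighter Zfp386 probe set, the last 3 with the sign turned. For the probe sets that stood for a gene these values were the same with 1 probe set per gene. The cause was not tested.

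In the fit with the replicate block Sohlh2 had -3.11 and the brighter Cap1 probe set -1.002 in the Sohlh2 knockout. The block gave 401 and 463 calls. An array whose replicate number occurs only once has no part in the differences of that fit. The arrays labelled Sohlh2 knockout 1 and Sohlh1 knockout 2 are among these. Between the knockouts Sohlh2 had -2.54 both with the block and without those 2 arrays. The block values of Sohlh2 and Cap1 are therefore given with no test. In the Sohlh2 knockout Sohlh2 had -3.03 with array weights, -3.07 with the covariate and -3.17 without the arrays labelled Sohlh2 knockout 1 and Sohlh1 knockout 2. These are values with no test, since each removes or can give less weight to an array that stands apart by its own Sohlh2 signal. The dimmer Cap1 probe set passed at -1.003 in the Sohlh2 knockout with only 2 groups (limma adjusted p = 0.0191). It and Sohlh1 (-1.66) had p = 0.0286 in the Sohlh2 knockout by the exact permutation test, unadjusted and the smallest it can give. The Cap1 tests share arrays with the choice of Cap1 and are not independent of it. The dimmer Zfp386 probe set turned sign in the Sohlh1 knockout, to 0.012 with median centring, 0.084 with array weights, 0.15 with the block, 0.038 without the arrays labelled Sohlh2 knockout 1 and Sohlh1 knockout 2, and 0.32 with the covariate.

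Leaving out 1 array gave, in the Sohlh2 knockout, -1.87 to -1.19 for Sohlh1, -3.17 to -1.70 for Sohlh2, -0.92 to -0.55 and -1.14 to -0.86 for the Cap1 probe sets, and 0.32 to 0.82 and -0.10 to 0.80 for the brighter and dimmer Zfp386 probe sets. The array labelled Sohlh1 knockout 5 enters these differences only through the shared spread, and without it the dimmer Cap1 probe set stayed at -1.003. No test is given for Cap1 there, since Cap1 was chosen with that array left out. None is given for Sohlh1, by which that array was picked. In the Sohlh1 knockout the ranges were -3.84 to -2.76 for Sohlh1, -0.70 to 0.65 for Sohlh2, -0.32 to 0.23 and -0.56 to -0.049 for the Cap1 probe sets, and -0.30 to 0.17 and -0.25 to 0.14 for the Zfp386 probe sets.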
